A study of Mus musculus with 8 samples.

Results

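The genes Sox10, Foxd3, Erbb3, Ednrb, Dhh, Fabp7 and Cdh19, which mark neural crest cells and the Schwann cells that descend from them, were followed across 8 RNA-seq libraries from E13.5 mouse limb buds. They were chosen by name, as rows carrying these symbols in any of the 4 deposited tables, and all 7 were found among the 739 distinct genes of those tables. The tables hold only genes that the authors called as changed between genotypes at a false discovery rate (FDR) under 0.05 and by at least 2-fold. A listed genotype change in at least 1 sorted fraction was therefore a condition for a gene to be in hand. Sox10, Erbb3 and Fabp7 were listed as lower for GFP-positive cells, Foxd3, Ednrb and Dhh as lower for GFP-negative cells, and Cdh19 as lower for both, at an FDR between 0.00698 and 0.0343 in the authors' deposited table. By the authors' rule 1.4% and 2.62% of about 16244 tested genes were listed as lower in the GFP-positive and the GFP-negative fraction.

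The fetuses were of the C57BL/6 strain and heterozygous at Sox9, which encodes a SoxE transcription factor needed for cartilage. Y440X fetuses (Sox9+/Y440X-IRES-EGFP, named CD in the tables) carried on 1 Sox9 allele the nonsense mutation Y440X together with IRES-EGFP, and WT fetuses (Sox9+/IRES-EGFP) carried the reporter alone. GFP thus marks cells that transcribe the tagged Sox9 allele, in WT as well as in Y440X. The deposited header names the WT mice Sox9+/+ and their genotype label reads wild type, so neither of these names the reporter. Between 4 and 6 pairs of buds were collected per genotype, forelimb and hindlimb apart, so a library can hold cells of several fetuses. Cell sorting split each suspension into GFP-positive and GFP-negative cells, which gave 4 groups of 2 libraries (Y440X GFP-positive, WT GFP-positive, Y440X GFP-negative, WT GFP-negative). The replicates of a group are 1 forelimb and 1 hindlimb library, so a p-value below measures a spread that mixes limb with other differences between libraries. Levels are CPM, the deposited counts over effective library sizes of 38577000 to 51140000. These sizes were solved from the authors' values, so they would include any scaling the authors applied and are not read totals. Log2 fold changes carry a standard error (SE) from edgeR's quasi-likelihood test, with p-values adjusted by Benjamini-Hochberg over the 739 genes.

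Neural crest cells leave the dorsal neural tube, migrate through the embryo and give rise to glia, neurons of the peripheral nervous system and pigment cells. Those that enter the limb do so along growing nerves, as Schwann cell precursors that depend on neuregulin from axons, and as melanoblasts. Sox10 is a close relative of Sox9 within the SoxE group and is required for the glial and pigment lineages, while Foxd3 specifies neural crest and holds precursors in the glial path. Erbb3 is the receptor through which Schwann cell precursors sense neuregulin, and Ednrb is the endothelin receptor needed by melanoblasts and enteric neural crest. Dhh is the hedgehog ligand by which Schwann cells instruct the nerve sheath. Fabp7 is a fatty acid binding protein of immature glia, and Cdh19 is a cadherin of Schwann cell precursors.

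Sox9, the targeted gene, had 475 and 560 CPM in forelimb and hindlimb of Y440X GFP-positive cells, against 1070 and 925 CPM in WT. In GFP-negative cells it had 17.8 and 21.9 CPM in Y440X, against 96.4 and 72.1 CPM in WT. It was lower in Y440X in both fractions by edgeR (log2 fold change -0.95 ± 0.28, adjusted p = 0.0059, in GFP-positive and -2.09 ± 0.19, adjusted p = 0.00015, in GFP-negative cells). The GFP-positive call was lost under TMM scaling over the listed genes (-0.27) and without the forelimb library of Y440X or of WT (-0.83 and -0.84). The sort was checked on cartilage markers. The 16 of 20 listed cartilage matrix genes with a row summed to between 12862 and 16772 CPM in Y440X GFP-positive libraries and between 38447 and 56942 CPM in WT. In GFP-negative libraries they summed to between 473 and 556 CPM in Y440X and between 727 and 806 CPM in WT. The 7 genes studied here had between 6 and 1910 reads in a library.

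Foxd3 and Ednrb were the members called lower in GFP-positive than in GFP-negative cells of both genotypes, and their promoters are shown for that reason, as RefSeq gives them on GRCm38.p6 from 250 bases before to 50 bases after the gene start. RefSeq promoters were at hand for 4 of the 7 members (Foxd3, Ednrb, Dhh and Fabp7). The Foxd3 window is chr4:99656049-99656348 on the plus strand and the Ednrb window is chr14:103843652-103843951 on the minus strand. The Ednrb window is set by the RefSeq start. It lies inside the span that GENCODE M21 gives the gene (103814625 to 103844402), whose start is farther upstream. Both are written 5′ to 3′. An E-box, CACGTG, is in capitals in the Foxd3 window, and the Ednrb window holds none.
Foxd3: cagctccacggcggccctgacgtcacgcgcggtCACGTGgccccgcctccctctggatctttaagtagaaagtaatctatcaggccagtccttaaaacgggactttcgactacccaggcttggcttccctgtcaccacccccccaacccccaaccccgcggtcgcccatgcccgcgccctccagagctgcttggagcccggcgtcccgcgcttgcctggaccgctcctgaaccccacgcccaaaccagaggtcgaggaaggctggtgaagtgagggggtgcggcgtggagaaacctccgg
Ednrb: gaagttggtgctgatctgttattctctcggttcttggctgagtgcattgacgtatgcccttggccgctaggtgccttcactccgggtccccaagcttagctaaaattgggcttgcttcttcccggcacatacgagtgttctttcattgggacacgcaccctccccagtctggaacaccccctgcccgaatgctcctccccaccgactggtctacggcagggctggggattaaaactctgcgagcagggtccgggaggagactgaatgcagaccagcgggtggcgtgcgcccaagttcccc
None of the 4 windows held the SoxE core letters ACAAAG or ACAATG on either strand, which 18.7% and 12.6% of the 32851 promoters in the RefSeq table did. CACGTG, a palindrome, stood in the Foxd3 window and in 7.15% of all. It was picked after the sequence was seen. These are matches of letters and say nothing of what binds there.

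In GFP-positive cells, all 7 genes were lower in Y440X than in WT. This sort keeps Sox9-transcribing cells, so the comparison is of the levels of these 7 genes between genotypes within that gate. Which cells of the gate carry their transcripts was not tested. The calls were made in a table of which 40.1% of genes were called lower by the same test, and 4 of the 7 had been selected on these very libraries. The median log2 fold change of the 7 was -1.75, against -0.47 over all 739 genes. In bulk RNA, fewer cells of a type and less RNA per cell cannot be told apart.

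Sox10 (chromosome 15, 79154908 to 79165240, minus strand, GRCm38) had 6.54 CPM in the forelimb library and 7.05 CPM in the hindlimb library of Y440X GFP-positive cells, against 20.3 and 25.4 CPM in WT. The Y440X pair lay below the WT pair with a wide gap, and the log2 fold change was -1.75 ± 0.24 (adjusted p = 4.8e-06). Foxd3 (chromosome 4, 99656299 to 99658622, plus strand) was rare in this gate, with 6 and 12 reads in Y440X and 33 and 22 reads in WT. That is 0.132 and 0.268 CPM in Y440X, against 0.855 and 0.517 CPM in WT, at a log2 fold change of -1.76 ± 0.49 (adjusted p = 0.0027). The ranges did not overlap, but the forelimb ratio of 0.154 and the hindlimb ratio of 0.518 differ in size.

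Of the receptors, Erbb3 (chromosome 10, 128567523 to 128589652, minus strand) had 7.99 and 12.4 CPM in Y440X GFP-positive cells, against 33.3 and 43.1 CPM in WT. Both Y440X libraries lay far under both WT libraries, and it fell by 1.90 ± 0.26 on the log2 scale (adjusted p = 3.8e-06). Ednrb (chromosome 14, 103814625 to 103844402, minus strand) had 2.02 and 1.18 CPM in Y440X, against 6.12 and 3.76 CPM in WT. In both genotypes its forelimb library was the higher one, and the 4 libraries split by genotype without overlap (log2 fold change -1.62 ± 0.31, adjusted p = 0.00016). Ednrb had not been listed for GFP-positive cells by the authors.

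The ligand gene Dhh (chromosome 15, 98891152 to 98898540, minus strand) had 14 and 16 reads in Y440X GFP-positive cells, against 33 and 35 reads in WT. At 0.307 and 0.357 CPM in Y440X, against 0.855 and 0.822 CPM in WT, its replicates lay close together (log2 fold change -1.33 ± 0.40, adjusted p = 0.0053). Dhh overlaps Rhebl1 on the same strand and the antisense gene Gm49442, so its few reads are uncertain. Fabp7 (chromosome 10, 57784881 to 57788450, plus strand) had 0.417 and 0.535 CPM in Y440X, against 2.33 and 1.25 CPM in WT. Its WT forelimb library stood well above the WT hindlimb one, yet both Y440X libraries lay under both (log2 fold change -1.90 ± 0.37, adjusted p = 0.00017). Cdh19 (chromosome 1, 110888326 to 110977584, minus strand) had 1.54 and 2.05 CPM in Y440X, against 4.90 and 3.90 CPM in WT, again without overlap (log2 fold change -1.29 ± 0.28, adjusted p = 0.00049).

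The 7 of 7 without overlap compare with 51.6% of all 739 genes that lay lower in Y440X without overlap in this fraction. Of the 436 genes that the authors listed for GFP-negative cells only, 15.8% were called lower in GFP-positive cells, and the 3 members among them, Foxd3, Ednrb and Dhh, all were. Leaving out the WT forelimb library left 3 of the 7 called (Sox10, Erbb3 and Fabp7), with Foxd3, Ednrb, Dhh and Cdh19 at adjusted p of 0.0955, 0.0664, 0.0572 and 0.0550. Dhh was not called by DESeq2 (adjusted p = 0.0559), and Dhh and Cdh19 were not called under TMM scaling over the listed genes (log2 fold changes -0.67 and -0.61).

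**Figure D1:**
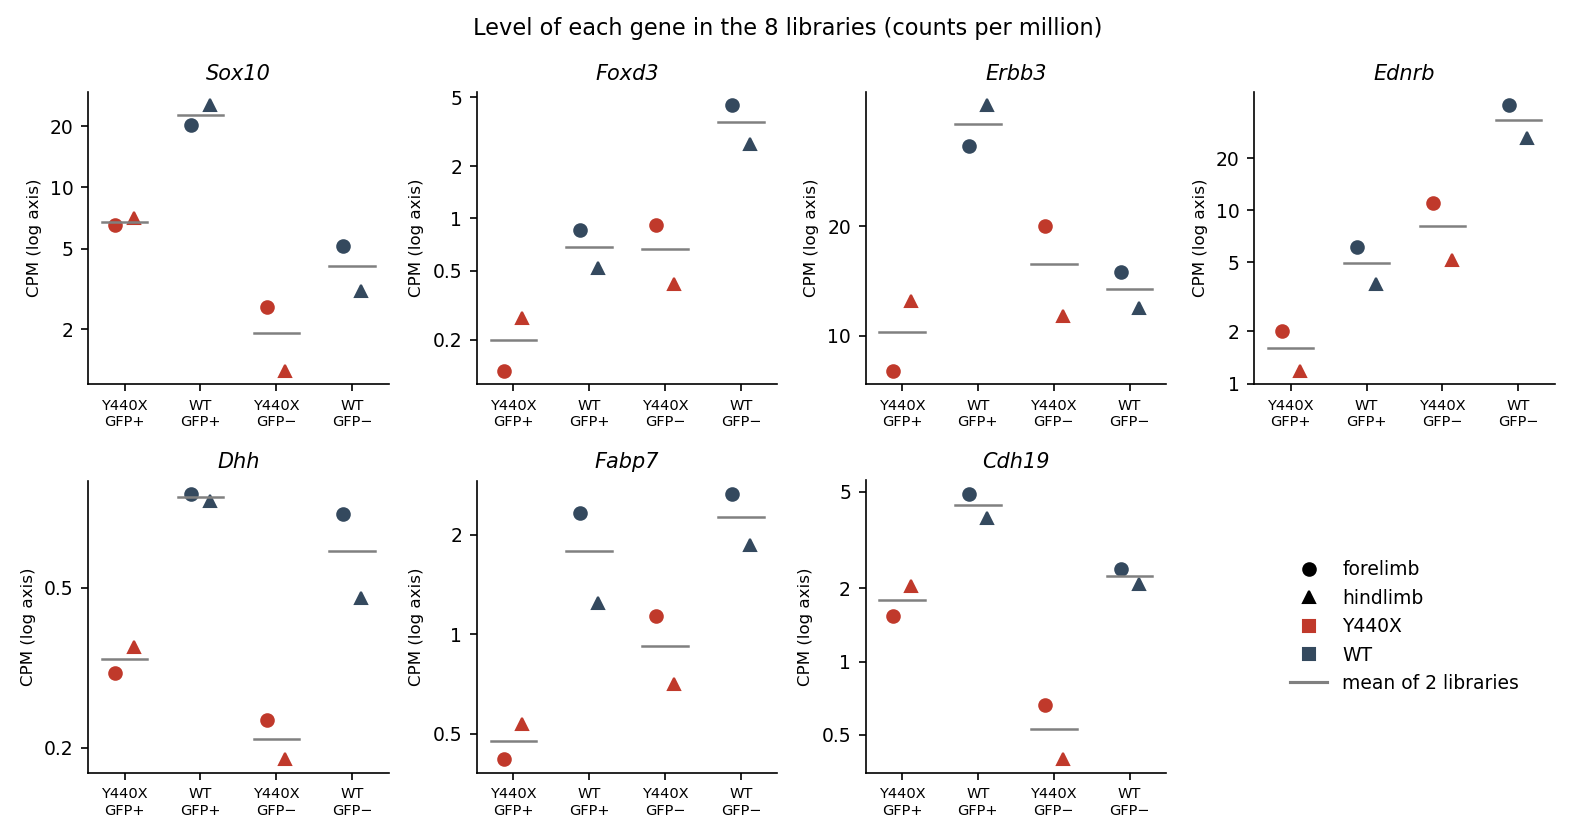
Level of each of the 7 genes in the 8 libraries, in CPM on a logarithmic axis that differs between panels; circles are forelimb, triangles hindlimb, red Y440X, dark blue WT, and grey bars the mean of 2 libraries. In GFP-positive cells both Y440X libraries lie below both WT libraries in every panel, and in GFP-negative cells in every panel except that of Erbb3, where they span 11.4 to 20.1 CPM in Y440X and 11.9 to 15 CPM in WT.

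In GFP-negative cells, 6 of the 7 genes were lower in Y440X and Erbb3 was not called. Here 67.3% of the 739 genes were called lower, and 12.7% higher. At this background a count of 6 says little about the members themselves. The median log2 fold change was -1.54 for the 7 genes and -1.15 for all 739.

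Foxd3 fell to 0.919 and 0.416 CPM in Y440X, against 4.49 and 2.70 CPM in WT. Both Y440X libraries lay well under both WT libraries (log2 fold change -2.42 ± 0.42, adjusted p = 0.0011). Sox10 had 2.58 and 1.25 CPM in Y440X GFP-negative cells, against 5.12 and 3.08 CPM in WT. The Y440X forelimb library came close to the WT hindlimb one, and the fall of 1.10 ± 0.39 on the log2 scale (adjusted p = 0.029) was the least firm of the 6. It was not called without the Y440X hindlimb library (-0.67, adjusted p = 0.107) or without the WT forelimb library (-0.68, adjusted p = 0.107).

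Ednrb had 11.0 and 5.20 CPM in Y440X, against 40.4 and 26.2 CPM in WT. Its highest Y440X library held less than its lowest WT library (log2 fold change -2.04 ± 0.34, adjusted p = 0.0011). Erbb3 had 20.1 and 11.4 CPM in Y440X, against 15 and 11.9 CPM in WT. The WT pair lay within the range of the Y440X pair, and the log2 fold change was 0.22 ± 0.28 (adjusted p = 0.48). It measured -0.25 without the Y440X forelimb library, and 1.29 (adjusted p = 0.0022) under TMM scaling over the listed genes.

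Dhh had 12 and 9 reads in Y440X GFP-negative cells, against 36 and 21 reads in WT. These amount to 0.235 and 0.187 CPM in Y440X and 0.762 and 0.472 CPM in WT (log2 fold change -1.54 ± 0.41, adjusted p = 0.0059). DESeq2 did not call Dhh here (adjusted p = 0.0650). Fabp7 had 1.13 and 0.707 CPM in Y440X, against 2.67 and 1.87 CPM in WT (log2 fold change -1.30 ± 0.34, adjusted p = 0.0068). Cdh19 had 0.665 and 0.395 CPM in Y440X, against 2.39 and 2.09 CPM in WT (log2 fold change -2.07 ± 0.34, adjusted p = 0.00089). None of these 3 overlapped between genotypes, while 73.3% of all 739 genes lay lower in Y440X without overlap in this fraction.

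Of the 229 genes that the authors listed for GFP-positive cells only, 31.4% were called lower in GFP-negative cells. The 3 members among them divided: Sox10 and Fabp7 were called and Erbb3 was not. The 229 likewise include genes listed as higher, while these 3 members were all listed as lower. Under TMM scaling over the listed genes, Foxd3, Ednrb and Cdh19 were still called lower, and Sox10, Dhh and Fabp7 measured -0.03, -0.47 and -0.22. That scaling raised the median log2 fold change of all 739 genes by 1.07 in this fraction and by 0.65 in GFP-positive cells.

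Markers of other cells in the GFP-negative sort moved as well, where 67.3% of all 739 genes were called lower and 12.7% higher. The 11 of 20 endothelial genes with a row were all called lower and summed to between 115 and 116 CPM in Y440X, against 265 and 281 CPM in WT. All 12 of 18 macrophage genes with a row were lower, at 122 to 146.5 CPM in Y440X and 458 to 515 CPM in WT, and so were all 8 of 21 muscle genes, at 48.2 to 58.2 CPM in Y440X and 124 to 127 CPM in WT. Of the 10 of 18 surface epithelium genes with a row 8 were called higher, with sums of 106 to 125 CPM in Y440X and 45.1 to 46.8 CPM in WT. No gene of these lists was at 0 in a GFP-negative library, and the part of these cells in the levels of Ednrb, Erbb3 and the other members was not tested. In GFP-positive cells, where Erbb3 fell, all 10 epithelial genes were called higher (59.9 to 83.8 CPM in Y440X, 22.4 to 22.5 CPM in WT), as were 15.8% of all 739 genes. Of the 11 endothelial genes 4 were called higher there (20.1 to 23.1 CPM in Y440X, 14.8 to 15.1 CPM in WT). Of the 8 muscle genes 6 were called lower (7.45 to 9.15 CPM in Y440X, 10.4 to 14.1 CPM in WT), as were 40.1% of all 739 genes. At most 1 of the 8 was at 0 in a library. Of the 12 macrophage genes 2 were called lower and 2 higher (8.96 to 10.7 CPM in Y440X, 11.7 to 12.3 CPM in WT).

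**Figure D2:**
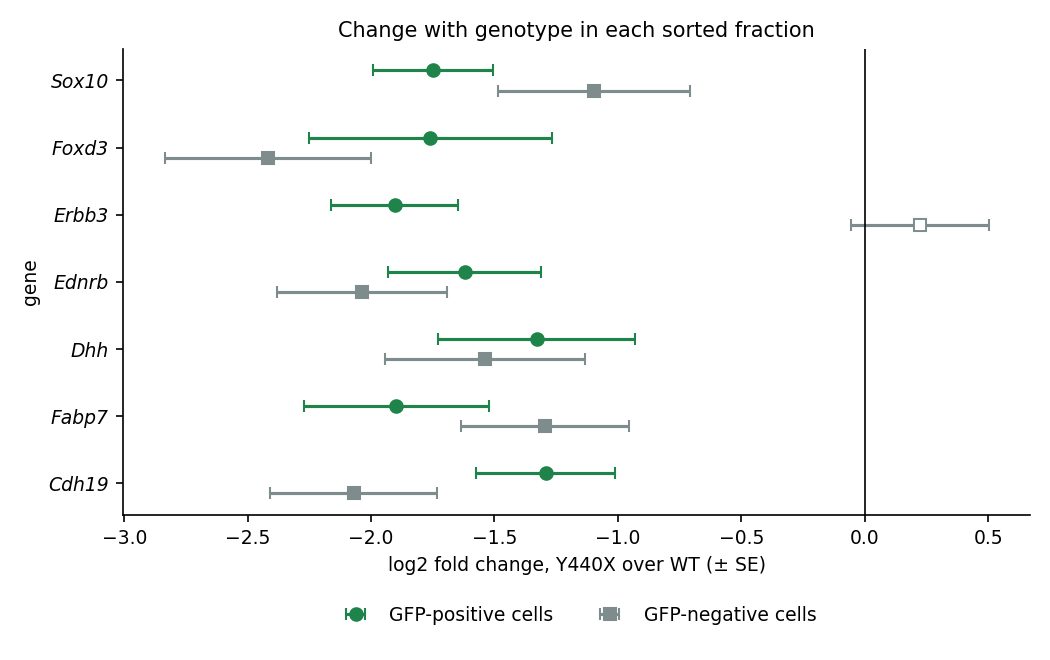
Log2 fold change of Y440X over WT (± SE, edgeR) for each gene in GFP-positive cells (green circles) and GFP-negative cells (grey squares); a white centre marks an adjusted p of 0.05 or more. All points lie left of 0 except Erbb3 in GFP-negative cells, at 0.22.

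Whether the change with genotype differed between fractions was tested as an interaction over all 8 libraries, in which 18.1% of the 739 genes were called with a more negative change in GFP-positive cells and 31.8% with a less negative one. Erbb3 alone among the 7 was called: its change was lower in GFP-positive than in GFP-negative cells by 2.13 ± 0.41 on the log2 scale (adjusted p = 0.0019). In GFP-positive cells the Y440X to WT ratio of Erbb3 was 0.240 in forelimb and 0.288 in hindlimb, whereas in GFP-negative cells it was 1.34 in forelimb and 0.951 in hindlimb. Both limbs thus showed the split. Erbb3 is in the tables only because the authors listed it as lower in these GFP-positive libraries, so the interaction is not independent of how the gene came to be in hand, and its p is a description. The difference kept its sign and its call under each alternative run, including each library left out in turn, with adjusted p between 4.3e-05 and 0.0107. The other 6 had differences between -0.65 ± 0.46 (Sox10) and 0.78 ± 0.45 (Cdh19), with adjusted p between 0.154 and 0.745. With an SE of 0.45 to 0.71 a difference could have been missed. Under TMM scaling over the listed genes Sox10 was called too (-1.27, adjusted p = 0.0218), and limma called Foxd3 (1.05, adjusted p = 0.0322).

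The second axis of the design sets GFP-positive against GFP-negative cells of the same limb pool. In WT the 7 genes divided over the gate: Sox10, Erbb3 and Cdh19 were higher in GFP-positive cells, Foxd3 and Ednrb were higher in GFP-negative cells, and Dhh and Fabp7 were not called. In the table as a whole 30.3% of genes were called higher and 49.8% lower in GFP-positive cells of WT. This contrast uses the same WT libraries as the genotype comparisons, so a gene listed for a fall in 1 fraction tends to be high in the WT libraries of that fraction.

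Sox10 was 3.97 times as high in GFP-positive as in GFP-negative cells of WT forelimb and 8.24 times as high in WT hindlimb (log2 fold change 2.48 ± 0.32, adjusted p = 9.4e-06). Erbb3 was 2.22 and 3.61 times as high (1.5 ± 0.29, adjusted p = 0.00035), and Cdh19 2.05 and 1.86 times as high (0.97 ± 0.29, adjusted p = 0.0077). These 3 lay on the same side of the gate as Sox9, which was 11.1 and 12.8 times as high. Cdh19 was not called without the WT GFP-positive forelimb library (adjusted p = 0.0619) or the WT GFP-negative hindlimb library (adjusted p = 0.0517). Foxd3 stood at 0.191 and 0.192 of its GFP-negative level (log2 fold change -2.39 ± 0.42, adjusted p = 0.00014), and Ednrb at 0.151 and 0.143 (-2.76 ± 0.37, adjusted p = 1.5e-05), so the limbs gave nearly the same ratio for each of them. Dhh, at 1.12 and 1.74 times (0.44 ± 0.33, adjusted p = 0.237), and Fabp7, at 0.875 and 0.667 times (-0.35 ± 0.36, adjusted p = 0.377), were not called. Dhh was called higher under TMM scaling over the listed genes (0.72, adjusted p = 0.0482).

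In Y440X the same sides were kept for 4 of these 5. Sox10 was 2.53 and 5.64 times as high in GFP-positive cells of forelimb and hindlimb (log2 fold change 1.82 ± 0.33, adjusted p = 0.00028), and Cdh19 2.31 and 5.19 times as high (1.75 ± 0.34, adjusted p = 0.00041). Foxd3 was at 0.143 and 0.643 of its GFP-negative level (-1.74 ± 0.57, adjusted p = 0.012), and Ednrb at 0.183 and 0.227 (-2.34 ± 0.39, adjusted p = 0.00015). Of all 739 genes 29.1% were called higher and 39.2% lower in GFP-positive cells of Y440X. Erbb3 was the exception: its ratio was 0.398 in forelimb and 1.09 in hindlimb, and its log2 fold change of -0.62 ± 0.29 was not called (adjusted p = 0.075). It was called lower under TMM scaling over the listed genes (-0.95, adjusted p = 0.0065) and without the Y440X hindlimb library of the GFP-positive or of the GFP-negative cells (-0.98 each, adjusted p = 0.0259 and 0.0144). Dhh measured 0.64 ± 0.43 (adjusted p = 0.186) and Fabp7 -0.95 ± 0.42 (adjusted p = 0.058). Fabp7 was called once the limb was entered as a block (-0.92, adjusted p = 0.0275) or the fit was limited to the 4 Y440X libraries (adjusted p = 0.0381). Foxd3 lost its call without the Y440X forelimb library of either fraction (-1.32, adjusted p = 0.0894, and -1.05, adjusted p = 0.160).

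**Figure D3:**
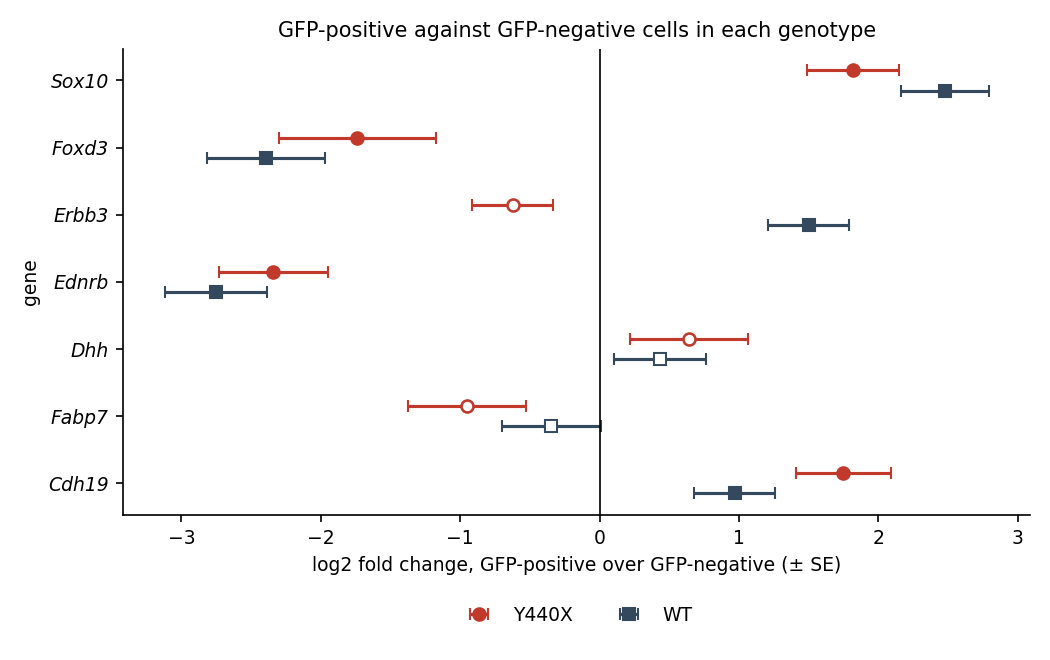
Log2 fold change of GFP-positive over GFP-negative cells (± SE, edgeR) for each gene in Y440X (red circles) and WT (dark blue squares); a white centre marks an adjusted p of 0.05 or more. Sox10 and Cdh19 lie right of 0 and Foxd3 and Ednrb left of 0 in both genotypes, and Erbb3 lies at -0.62 in Y440X and 1.5 in WT.

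Forelimb and hindlimb libraries of a group differed in a regular way in GFP-negative cells. All 7 genes were higher in forelimb than in hindlimb in both genotypes there, by 1.25-fold (Dhh) to 2.21-fold (Foxd3) in Y440X and by 1.14-fold (Cdh19) to 1.66-fold (Foxd3) in WT. Of all 739 genes 46.5% were higher in forelimb in both genotypes. With limb as a term beside genotype, a comparison added after the data were seen that leaves 1 residual degree of freedom, the log2 forelimb over hindlimb change ran from 0.36 ± 0.25 (Cdh19) to 0.87 ± 0.18 (Sox10), and the median was 0.58 for the 7 genes and 0.14 for all 739. No member passed edgeR's adjusted threshold (adjusted p between 0.152 and 0.492), and 0 of the 739 genes did. Unadjusted, 5 members had p under 0.05 (all except Dhh and Cdh19), as had 30 genes lower and 110 higher in forelimb. DESeq2 called Ednrb alone of the 7 (adjusted p = 0.0030) among 16 genes higher and 3 lower, and limma called 0. TMM scaling over the listed genes kept all 7 above 0 and also called Ednrb (0.69, adjusted p = 0.0234).

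In GFP-positive cells only Ednrb was higher in forelimb in both genotypes (1.71-fold in Y440X and 1.63-fold in WT), where 35.7% of all genes were. Its log2 change of 0.73 ± 0.25 was at the threshold (adjusted p = 0.0489, with 6.22% of the 739 genes called higher in forelimb), and it was not called by DESeq2, by limma or after TMM scaling over the listed genes. The last of these called Erbb3 lower in forelimb (-0.63, adjusted p = 0.0222). Sox10 and Erbb3 were lower in forelimb in both genotypes, at 0.928 and 0.643 of their hindlimb level in Y440X and 0.800 and 0.771 of it in WT. Limb and library cannot be told apart with 1 library of each limb per group.

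**Figure D4:**
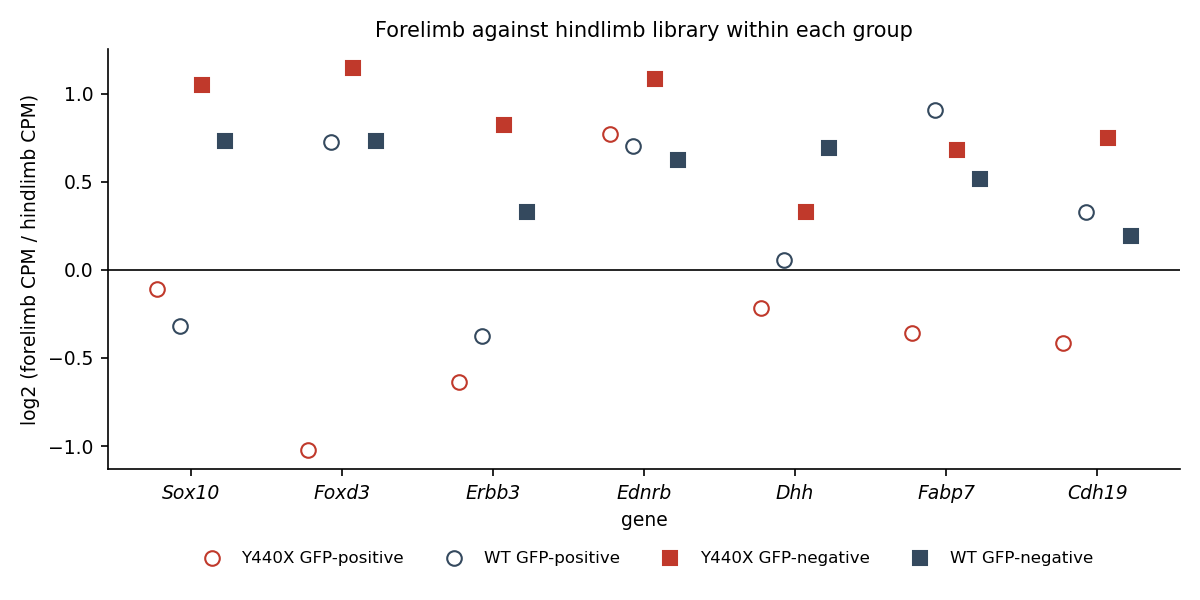
Log2 ratio of forelimb to hindlimb CPM for each gene in the 4 groups; open circles are GFP-positive and filled squares GFP-negative, red Y440X, dark blue WT. All filled squares lie above 0, with Y440X Foxd3 the highest at 2.21-fold, while open circles lie on both sides.

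Per kilobase of the deposited gene length, the order of levels (RPKM, mean ± SD, n = 2) shifted across the gate. In Y440X GFP-positive cells Erbb3 (2.54 ± 0.78) and Sox10 (2.50 ± 0.13) led without differing beyond their spread, followed by Fabp7 (0.625 ± 0.11) and Cdh19 (0.587 ± 0.12), which also overlapped. Ednrb, Dhh and Foxd3 came last at 0.368, 0.140 and 0.0841 RPKM. WT GFP-positive cells had the same order, with Erbb3 at 9.50 ± 1.74 and Sox10 at 8.43 ± 1.32 RPKM, and with Dhh (0.354 ± 0.0099) and Foxd3 (0.289 ± 0.10) last. In Y440X GFP-negative cells Erbb3 was highest at 3.91 ± 1.53 RPKM and Ednrb next at 1.86 ± 0.95. In WT GFP-negative cells Ednrb was highest at 7.65 ± 2.31 RPKM and Erbb3 next at 3.35 ± 0.54, close to Fabp7 at 2.97 ± 0.74. Foxd3 and Sox10 shared the same level there, 1.51 RPKM each.

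Other genes of the lineage were read from wider lists. Of 30 Schwann cell lineage genes 9 had a row, and the other 21 were not analysed here. Besides the 5 members on that list these were Gjc3, Mal, Moxd1 and Gfap. In GFP-positive cells 8 of the 9 were called lower and 1 higher, where 40.1% of all 739 genes were called lower and 15.8% higher. The authors had listed Sox10, Erbb3, Fabp7, Cdh19, Gjc3 and Moxd1 as lower, and Gfap as higher, on these very GFP-positive libraries. Most of that count was therefore fixed by the listing, and it is no independent support for the members. In GFP-negative cells 6 of the 9 were called lower and 1 higher, close to the share of all genes there (67.3% lower and 12.7% higher). Their summed level was 48.2 to 60.3 CPM in Y440X GFP-positive libraries and 174 to 211 CPM in WT, and 34.6 to 49.9 CPM in Y440X GFP-negative libraries and 41.7 to 51.7 CPM in WT. In every group most of that sum is Moxd1, Erbb3 and Sox10. Moxd1, which is not a member, was the largest part, at a mean of 33.6 CPM in Y440X and 123 CPM in WT GFP-positive cells. In GFP-negative cells its mean was 21.6 CPM in Y440X and 21.4 CPM in WT.

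Gjc3, a connexin of myelinating glia, had 2 and 1 reads in Y440X GFP-positive cells, against 44 and 15 reads in WT, and no ratio is given for so few Y440X reads. In GFP-negative cells it had 0.489 and 0.166 CPM in Y440X, against 1.25 and 0.944 CPM in WT (log2 fold change -1.72 ± 0.46, adjusted p = 0.0069). Mal, a proteolipid of myelin membranes, had 0.110 and 0.0892 CPM in Y440X GFP-positive cells, against 0.363 and 0.211 CPM in WT, and fell by 1.95 ± 0.45 on the log2 scale in GFP-negative cells (adjusted p = 0.0034). Its GFP-positive values rest on 5 and 4 reads in Y440X and 14 and 9 reads in WT. Gjc3 and Mal thus moved in the direction of the members in both fractions, on few reads in GFP-positive cells. The authors had listed Gjc3 as lower for GFP-positive and Mal as lower for GFP-negative cells. For each gene the direction in that fraction was therefore set by the listing. Moxd1, a monooxygenase-like gene, fell in GFP-positive cells (log2 fold change -1.87 ± 0.28, adjusted p = 1.2e-05) and measured 0.01 ± 0.19 in GFP-negative cells (adjusted p = 0.951), a pattern like that of Erbb3, and its interaction was called as well (-1.88 ± 0.38, adjusted p = 0.0021). Moxd1, like Erbb3, had been listed for GFP-positive cells alone. Gfap, an intermediate filament of glia, was the 1 gene of the list that rose, to 1.08 and 0.669 CPM in Y440X GFP-positive cells, against 0.311 and 0.141 CPM in WT (log2 fold change 1.96 ± 0.48, adjusted p = 0.00082), and in GFP-negative cells (0.85 ± 0.33, adjusted p = 0.038). The WT GFP-positive values of Gfap rest on 12 and 6 reads.

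Of 16 neural crest specifiers 5 had a row: Sox10, Foxd3, Sox5, Sox8 and Snai1. All 5 were called lower in both fractions, where 40.1% (GFP-positive) and 67.3% (GFP-negative) of all genes were. The authors had listed Sox10, Sox5, Sox8 and Snai1 as lower for GFP-positive cells, and Foxd3 and Sox5 for GFP-negative cells. Many of these calls were therefore set by the listing, and specifiers without a row were not analysed here. Sox5, Sox8 and Snai1 also act in cartilage and were 1.60 to 4.52 log2 units higher in GFP-positive than in GFP-negative cells of WT. Of 12 melanoblast genes Ednrb alone had a row, and of 20 neuron and axon genes 0 had, so neither cell type could be checked by its own markers. Of 15 genes of neuregulin and ErbB signalling, the receptor gene Erbb4 and the ligand gene Tgfa were present beside Erbb3. Erbb4 had 3.38 and 3.28 CPM in Y440X GFP-positive cells, against 3.40 and 2.37 CPM in WT, with no call (0.21 ± 0.28, adjusted p = 0.54). It was lower in Y440X GFP-negative cells (-1.07 ± 0.31, adjusted p = 0.011). Tgfa fell in GFP-positive cells (-1.29 ± 0.23, adjusted p = 9.3e-05) and measured 0.16 ± 0.23 in GFP-negative cells (adjusted p = 0.54). Of 7 endothelin genes, Edn1, a ligand, was present beside Ednrb: it measured 0.71 ± 0.40 in GFP-positive cells (adjusted p = 0.13) and fell by 1.36 ± 0.35 in GFP-negative cells (adjusted p = 0.0065). Of 16 hedgehog genes, Ihh, the ligand of prehypertrophic chondrocytes, was present beside Dhh, and fell in both fractions (-1.96 ± 0.27 and -1.38 ± 0.35, adjusted p = 4.3e-06 and 0.0058). Tgfa and Ihh had been listed as lower for GFP-positive cells, and Erbb4 and Edn1 as lower for GFP-negative cells.

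The profile of each member over the 8 libraries was also matched to all genes with a mean of at least 0.5 CPM, by the root mean square difference of centred log2(CPM + 0.5). Fabp7 had the closest match, Gjc3 at 0.112, followed by Fam198b (0.183) and Afap1l2 (0.216), where the median gene stood at 0.984. Both Fabp7 and Gjc3 are low, so the added 0.5 flattens their profiles: without it their fitted log2 genotype changes in GFP-positive cells were -1.90 and -4.36, and the closeness does not extend to that scale. Dhh was nearest to Kbtbd6 (0.123), Hist1h1d (0.153) and Naa30 (0.155), and its profile is flattened in the same way. Cdh19 was nearest to Mbnl2 (0.178), Ell2 (0.204) and 1500015O10Rik (0.236). The added 0.5 also flattens the Cdh19 profile in GFP-negative cells. Its fitted log2 genotype change there was -2.07, against -1.32 for Mbnl2, -1.13 for Ell2 and -1.47 for 1500015O10Rik. Sox10 was nearest to Plekha4 (0.271), Tgm2 (0.297) and Edil3 (0.333), and Foxd3 to Cav2 (0.264), Serpinb8 (0.293) and Fyb (0.301). The Foxd3 profile is flattened in the same way in GFP-positive cells. Its fitted log2 genotype change there was -1.76, against -0.37 for Cav2, -0.84 for Serpinb8 and -0.40 for Fyb. Erbb3 had no near match below 0.415, its nearest being Gcnt1 (0.415), Slc17a9 (0.416) and Sh3tc2 (0.418), and neither had Ednrb, with Myh7 (0.430), Acta1 (0.442) and Rab7b (0.456). No member was among the 3 nearest genes of another member.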

How the data were processed

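Per the labels' protocols, limb buds were dissociated, sorted for GFP and sequenced after a stranded mRNA library kit. The submitters' processing notes list GRCm38 and mm10 as builds, and featureCounts and edgeR 3.36.0 as tools, with no aligner. Per the file headers, the authors' tables give the log2 ratio of Y440X to WT, the mean CPM in log2, an F statistic (a score of their test), a p-value with its FDR, and the gene length in bases (a unit of another kind). The header calls the library columns RPKM, but the deposited values are read counts: 100% of 5912 values were whole, and they scale with the authors' CPM whatever the gene length.

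Library sizes were solved from the deposited log2 fold changes and log2 CPM of genes with at least 200 counts. Median absolute residuals were 0.000165 over 283 fold changes and 0.000631 over 165 log2 CPM values. At 1 CPM a library holds 38.6 to 51.1 reads. The listed genes took 0.808% to 8.34% of the effective size of a library, and 0 sample columns were left unused.

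edgeR 4.0.16 (quasi-likelihood test of version 3, R 4.3.3) was run on all 739 genes. Genotype was tested in each fraction alone, and fraction and interaction over all 8 libraries. All tests were two-sided. The script was tested on simulated data. Alternatives were DESeq2 1.42.0, limma 3.58.1 on log2(CPM + 0.5), TMM over the listed genes, a mean of at least 1 CPM, limb as a block, other sets of libraries in the fit and each library left out. Limbs pair the libraries: GFP-positive and GFP-negative cells came from the same suspension, and forelimb minus hindlimb differences correlated over 541 genes between fractions (r = 0.22 in Y440X and 0.14 in WT) and between genotypes (0.45 within the GFP-positive fraction, 0.48 within the other).

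Named genes are the 7 members, Sox9, genes of the lineage and signalling lists, and the 3 nearest profiles of each member. Members and lists were chosen with earlier results of these data known. Coordinates come from GENCODE M21 (GRCm38). Whether reads were counted by strand is not stated.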

Additional observations from a re-analysis of the deposited data

Results flagged for a closer look

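The change with genotype differed between fractions for Erbb3, by -2.13 on the log2 scale (GFP-positive minus GFP-negative, edgeR interaction, adjusted p = 0.0019), with both limbs in the same direction. Erbb3 is in the tables through its listed fall in GFP-positive cells, so these libraries also selected it and the p-value is not independent of that choice. It also differed for Sox9, by 1.14 (adjusted p = 0.012), whose level the sort itself selects on, and Sox9 was not called without the forelimb library of Y440X GFP-negative cells (1.00, adjusted p = 0.0539) or of WT GFP-negative cells (0.91, adjusted p = 0.0610). With TMM scaling the Sox9 difference was 0.50 and not called (adjusted p = 0.244). Sox9 was listed by the authors for GFP-negative cells alone, so its p is no more independent of the listing than that of Erbb3.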

How the results depend on the processing

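The library sizes were recovered rather than given, and TMM over a list selected for change assumes that most listed genes do not change. Under it, all-gene calls in GFP-positive cells were 162 lower and 223 higher in Y440X, and in GFP-negative cells 121 lower and 211 higher, with 3 members lower and 1 (Erbb3) higher. Across the gate in Y440X it called 4 members lower in GFP-positive than in GFP-negative cells, with 345 genes lower and 163 higher. For the interaction it called 2 members lower, with 204 genes lower and 140 higher, and put Ednrb at -0.21 and Dhh at -0.41. The cause of these shifts beyond the scaling itself was not tested.

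The interaction of Dhh was -0.046 by limma, which called 1 member (Foxd3) higher. A mean of at least 1 CPM left 53 genes higher in Y440X GFP-negative cells and 6 members in the test, without Dhh. Forelimb against hindlimb in GFP-positive cells gave 1 member lower and 0 higher under TMM (20 genes lower, 22 higher) and 0 members higher by DESeq2 (2 genes lower, 24 higher, Foxd3 at -0.033) and by limma. In GFP-negative cells it gave 1 member higher under TMM (16 genes lower, 12 higher, Sox9 at -0.070) and 1 by DESeq2 (3 genes lower, 16 higher).

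With each library left out in turn, GFP-positive cells gave 3 to 7 members lower, 191 to 278 genes lower and 37 to 106 higher in Y440X, all lowest without the WT forelimb library. Across the gate in Y440X, GFP-positive over GFP-negative, the log2 change ran from -2.78 to -1.70 for Ednrb and from -2.32 to -1.05 for Foxd3. It ran from -1.25 to -0.57 for Fabp7 and from -0.98 to -0.15 for Erbb3. The interaction gave 89 to 130 genes lower. Log2 values that crossed 0 were Erbb3 in GFP-negative cells (-0.25 to 0.58), Fabp7 across the gate in WT (-0.86 to 0.040), and the interactions of Ednrb (-0.026 to 1.06) and Dhh (-0.18 to 0.51). With 1 library left in a group, its spread is assumed to match that of the others.

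With the limb as replicate block, Fabp7 in GFP-positive against GFP-negative cells of Y440X became called (-0.92). The block changed no other call of a member or Sox9. Over all member and Sox9 values, 479 alternatives kept direction and call, 16 gained a call, 26 lost it and 10 changed sign. Counts under 20 reads in some libraries limit precision, for Foxd3, Dhh, Fabp7 and Cdh19 among the members and for other named genes such as Gjc3, Mal and Gfap.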
